A study of Mus musculus with 7 samples.

Results

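The mouse adenosine receptor family has 4 genes, Adora1, Adora2a, Adora2b, and Adora3, and their loci were described from the ATAC-Seq peaks of sorted islet cells. ATAC-Seq uses a transposase to cut and tag accessible DNA, so a peak marks a stretch of open chromatin. A locus was the GENCODE gene body with 20 kb on either side, and every distinct peak interval overlapping a locus in any of the 7 peak lists was a member. There were 145 such peaks of 1190565 in the 7 lists. Joining peaks that overlapped by at least 1 bp gave 86 regions, out of 834695 across the genome. The members were chosen by the measured peak positions themselves, so the presence or absence of a peak by cell type is a description and was not tested. The outermost peaks inside and outside the windows were mostly weak. At the upstream edge of Adora3, for example, the last peak inside, in delta 1, had a -log10 q of 0.95, and the first outside, in alpha 1, had 3.30. At the downstream edge of Adora2b the last inside was the alpha 1 peak of a neighbouring promoter, with 10.9, and the first outside, in alpha 2, had 1.02. The -log10 q is the strength of a peak after the peak caller's adjustment over the library.

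Adenosine forms outside cells from released ATP and acts on receptors that signal through G proteins. The A1 and A3 receptors, encoded by Adora1 and Adora3, couple mainly to inhibitory G proteins and lower cAMP, whereas the A2a and A2b receptors, encoded by Adora2a and Adora2b, couple to stimulatory G proteins and raise it. In pancreatic islets cAMP amplifies hormone secretion, and adenosine is known to act on both insulin and glucagon release.

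The libraries were 2 of alpha cells, 3 of beta cells, and 2 of delta cells, which secrete glucagon, insulin, and somatostatin. All came from healthy mice that carried the mIns1-H2b-mCherry transgene, which marks beta cells, and the Rosa-LSL-YFP allele, which Gcg-Cre switches on in alpha cells or Sst-Cre in delta cells. Cells were pooled by sex, with female pools for alpha 1, beta 2, and delta 1 and male pools for the rest, and the labels do not give the age or which cross a beta library came from. The reporters follow present or past promoter activity, so the cell types were those that the transgenes mark.

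The lists held 131151 distinct peaks in alpha 1, 111961 in alpha 2, 518503 in beta 1, 91089 in beta 2, 103935 in beta 3, 158066 in delta 1, and 75860 in delta 2. Beta 1 stood apart, with the longest list and the fewest peaks, 25903, that reached a -log10 q of 2. In the other libraries between 32047 and 52057 peaks did, and this limit is called the stricter cutoff here. In the published quality metrics, unique reads were, among the 7 libraries analysed here, most numerous in delta 1, followed by alpha 2, alpha 1, beta 3, delta 2, beta 2, and beta 1, so the beta libraries and delta 2 were shallower than both alpha libraries. A further beta library that the authors removed is not analysed here. The names of the 3 beta lists carry alpha (beta 1) or delta (beta 2 and beta 3) in place of beta, and the grouping followed the labels. The same names place alpha 1, alpha 2, and beta 1 in one sequencing lane and the remaining libraries in another. Alpha and delta cells also came from different crosses, so lane and cross cannot be told apart from the alpha to delta contrast.

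Promoter peaks of hormone and lineage genes were examined as a check of the labels. A promoter peak here lay within 1 kb of the annotated 5′ end. Gcg, the glucagon gene, had one in alpha 1, alpha 2, and delta 2, all past the stricter cutoff, and in no beta library. Sst, the somatostatin gene, had one in delta 1, delta 2, and beta 1, but only that of beta 1 passed the stricter cutoff. Ins1, an insulin gene, had one in all 7 libraries and passed the stricter cutoff in beta 1, beta 3, and delta 1. The annotated 5′ end of Ins2 is that of a read-through model of 64.7 kb, and with every annotated transcript start of the gene a peak was found in beta 1, beta 3, and delta 2, none past the stricter cutoff. Irx1, an alpha cell transcription factor, had a promoter peak in both alpha libraries, in both delta libraries, and in beta 3. Hhex, a delta cell transcription factor, and Ghsr, the ghrelin receptor, had them in both alpha libraries, both delta libraries, and beta 1. Rbp4 and Ffar4, listed as delta markers, had them past the stricter cutoff in both alpha and both delta libraries. Ffar4 had a weaker one in beta 1. Rbp4 had none at its 5′ end in beta libraries, although beta 1 had a peak at another annotated start. By the rule of 2 libraries Gcg was called in alpha cells alone and Sst in delta cells alone, and Hhex, Ghsr, Rbp4, and Ffar4 were called in alpha and delta cells.

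Markers of cells that often express adenosine receptors were examined too. None of the 6 endothelial and none of the 8 immune marker genes had a promoter peak in 2 or more libraries of any cell type. Single peaks past the stricter cutoff lay at Laptm5, an immune gene, in beta 1 and at Kdr, an endothelial receptor, in delta 1. Cd3e, Itgam, Cdh5, Tie1, and Plvap had none in any library. With every annotated transcript start in place of the 5′ end, Ptprc was called in beta and delta cells, Csf1r in delta cells, and Laptm5 in beta cells, none of them in 2 libraries past the stricter cutoff. Of 4 mesenchymal markers, Pdgfrb was called in alpha and delta cells and Col1a1 in alpha cells, in both genes without reaching the stricter cutoff in 2 libraries of a cell type. Of 5 acinar markers that matched the annotation, Bhlha15 was called in all 3 cell types and Ptf1a in alpha cells. Cpa1 and Cela2a, acinar enzymes, had no promoter peak. Of 5 duct markers, Cftr was called in all 3 cell types and Spp1 in delta cells, and both passed the stricter cutoff in delta 1 and delta 2 and in no other library. The part of these markers in the results was not tested.

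The loci lay on 4 chromosomes of the mm10 (GRCm38) assembly. Adora1 (ENSMUSG00000042429.8) lies at chr1:134199223-134235431 on the minus strand, Adora2a (ENSMUSG00000020178.6) at chr10:75316877-75334784, Adora2b (ENSMUSG00000018500.2) at chr11:62248984-62266453, and Adora3 (ENSMUSG00000000562.5) at chr3:105870858-105908926, the last 3 on the plus strand. The windows held 50 distinct peaks at Adora1, 34 at Adora2a, 22 at Adora2b, and 39 at Adora3. At the stricter cutoff 47 peaks were left, 8 at Adora1, 8 at Adora2a, 10 at Adora2b, and 21 at Adora3. The windows were 76.2 kb at Adora1, 57.9 kb at Adora2a, 57.5 kb at Adora2b, and 78.1 kb at Adora3, and beta 1 gave 19 of the 50 peaks at Adora1 and 8 of the 39 at Adora3.

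**Figure D1:**
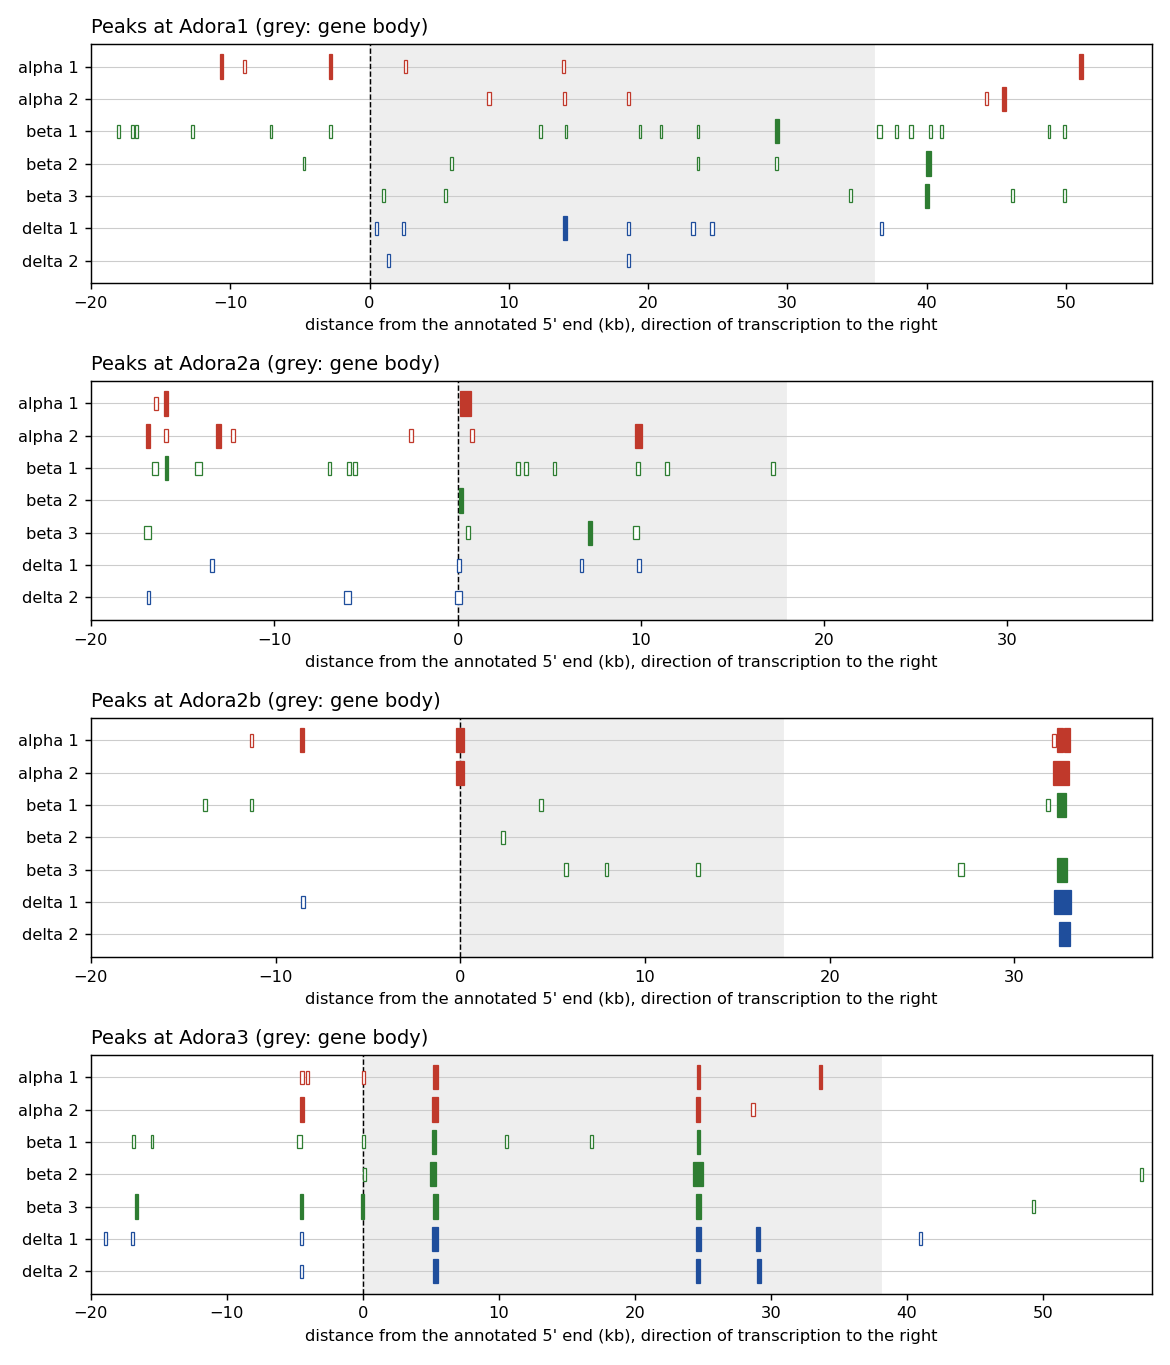
Peaks of each library along the 4 receptor windows, by distance in kb from the annotated 5′ end, with the direction of transcription to the right. Filled tall boxes are peaks whose -log10 q is 2 or more, open short boxes are the other peaks, and grey marks the gene body. The Adora2b promoter has peaks in the 2 alpha libraries only, and Adora3 has 2 regions with peaks in all 7 libraries.

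Of the 86 regions, 61 were called in 1 library, 26 of these in beta 1, and 25 were called in 2 or more. The 61 were 70.9% of the regions of the 4 loci, where 84% of the 834695 regions of the genome were called in 1 library. A pair of regions, both in Adora3, were called in all 7 (2.33%), beside 2.13% of the regions of the genome. A region counted as open in a cell type if 2 or more of that type's libraries had a peak there. By this rule 8 regions were open in alpha cells, 11 in beta cells, and 7 in delta cells, or 9.3%, 12.8%, and 8.14% of the 86. Across the genome 5.45% of regions were open in alpha cells, 6.75% in beta cells, and 5.38% in delta cells. A region was selective when it was open in 1 cell type and had no peak in any library of the other 2. Of the 25 regions called in 2 or more libraries, 1 was alpha-selective, 4 were beta-selective, and 1 was delta-selective. Among the 133698 regions of 2 or more libraries in the genome, 2.42% were alpha-selective, 10.7% beta-selective, and 2.06% delta-selective. The alpha-selective region was the Adora2b promoter, the delta-selective region lay in an Adora3 intron, and all 4 beta-selective regions lay in the Adora1 window. Of all 21938 protein-coding windows made the same way, 11.9% held an alpha-selective region, 29.7% a beta-selective region, and 9.12% a delta-selective region. Nothing is read from these shares, since the rule used the same peaks.

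The reference sequence is shown first for 3 of the 6 selective regions, the alpha-selective one, the delta-selective one, and the one beta-selective region with a peak in all 3 beta libraries. Each is written 5′ to 3′ on the plus strand of GRCm38, and capitals mark matches to any of the motifs searched. The first is the part of the Adora2b alpha-selective region before the 5′ end of the gene (chr11:62248763-62248983), the next the part around the summit of the beta-selective region in a Mybph intron of the Adora1 window (chr1:134195256-134195543, which leaves out most of the beta 1 peak), and the last the part around the summit of the delta-selective region in an Adora3 intron (chr3:105899824-105900119).
Adora2b promoter: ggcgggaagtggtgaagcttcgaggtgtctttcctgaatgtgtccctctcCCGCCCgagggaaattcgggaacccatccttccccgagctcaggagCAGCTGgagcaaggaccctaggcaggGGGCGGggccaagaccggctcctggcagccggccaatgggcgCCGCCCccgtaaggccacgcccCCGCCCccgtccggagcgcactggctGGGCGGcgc
Adora1 window: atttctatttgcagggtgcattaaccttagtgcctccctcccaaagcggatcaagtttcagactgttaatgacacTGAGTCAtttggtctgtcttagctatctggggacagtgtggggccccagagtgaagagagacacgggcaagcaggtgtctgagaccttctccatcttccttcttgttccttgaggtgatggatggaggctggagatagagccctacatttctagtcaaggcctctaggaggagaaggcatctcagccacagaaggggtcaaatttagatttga
Adora3 intron: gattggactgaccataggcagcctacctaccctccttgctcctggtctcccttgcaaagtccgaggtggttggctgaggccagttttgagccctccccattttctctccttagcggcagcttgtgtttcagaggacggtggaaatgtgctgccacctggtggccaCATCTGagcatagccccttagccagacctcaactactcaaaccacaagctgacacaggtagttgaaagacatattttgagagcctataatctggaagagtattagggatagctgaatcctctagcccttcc

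The motifs were searched on both strands as exact letters, and none of them contains another. They were the cAMP response element TGACGTCA, the Foxa forms TGTTTAC and, with another base, TGTTTGC, the E-box forms CAGATG and, likewise, CAGCTG, the homeobox motif TAATTA, the Sp/KLF box GGGCGG, the Gata motif AGATAA, the Maf motif TGCTGA, the AP-1 motif TGANTCA, the Rfx motif GTTGCCA, and the NRF1 palindrome. The Adora2b promoter stretch had a GC content of 70.6% with 19 CpG sites, and held 5 matches to GGGCGG and 1 to CAGCTG. In 300 bp windows around the summits of all 82957 regions open in a cell type, 18.4% held GGGCGG and 20.1% held CAGCTG. The Adora1 window stretch held a single TGAGTCA, a form of the AP-1 motif that 19.3% of those windows held. The Adora3 intron stretch held 1 match to CAGATG, on the minus strand, where 24.7% of those windows held that motif. Over the 16 regions of the 4 loci open in a cell type, 8 windows held the Maf motif and 6 the AP-1 motif, against 25.7% and 19.3% of all windows. CAGATG was in 2 of the 16 and CAGCTG in 4, against 24.7% and 20.1%. GGGCGG was in 3 and AGATAA in 2, against 18.4% and 14.3%. TGTTTAC was in 1, TGTTTGC in 2, and TAATTA in 1, against 7.16%, 9.49%, and 8.05%. None of the 16 held the cAMP response element, the Rfx motif, or the NRF1 palindrome, which 1.04%, 5.57%, and 0.346% of all windows held. The median GC content was 49.5% in the 16 and 48.0% in all windows. A match is a description of the letters and not a binding site.

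Adora2b, the low-affinity receptor that raises cAMP, was the receptor with a promoter peak in alpha cells alone. The peak had a -log10 q of 3.92 and a fold enrichment of 4.93 in alpha 1 (chr11:62248763-62249180) and a -log10 q of 4.34 and a fold enrichment of 5.13 in alpha 2 (chr11:62248766-62249190). The fold enrichment is the signal at the summit over the local background of the same library. Both peaks covered the 5′ end and reached into the first exon, with its UTR and coding sequence. No beta or delta library had a peak within 1 kb, and with a limit of 3 kb beta 2 had one as well. Alpha-selective promoter peaks were found at 0.337% of the 21938 protein-coding genes, and Adora2b was the 1 receptor of 4 among them. Of the lane that held both alpha libraries, beta 1, which had the fewest unique reads, had no peak there. The part of lane and of mouse cross was not tested. Delta 1, the library with the most unique reads, had none, and the beta libraries and delta 2 were shallower than the alpha libraries. In bulk cells, fewer cells with an open promoter and a less open promoter in each cell cannot be told apart.

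The nearest peak shared by the cell types in the Adora2b window was not its own. It covered the promoter shared by the head-to-head genes Zswim7, a factor in DNA repair by recombination, and Ttc19, a mitochondrial complex III assembly factor (chr11:62281037-62282050). Peaks lay there in 6 libraries, all but beta 2, with a highest -log10 q of 10.9 in alpha 1, 10.9 in alpha 2, 2.44 in beta 1, 7.14 in beta 3, 5.43 in delta 1, and 5.56 in delta 2. The 3 peaks of beta 3 inside the Adora2b gene body and the single ones of beta 1 and beta 2 did not reach the stricter cutoff. Upstream, a region at chr11:62240293-62240547 was called in alpha 1, with a -log10 q of 2.16, and in delta 1, with 0.20.

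Adora2a, the other receptor that raises cAMP, had a promoter peak in every cell type. The region at its 5′ end (chr10:75316758-75317746) reached from upstream sequence into a 5′ UTR exon. Its -log10 q was 4.82 in alpha 1, 0.25 in alpha 2, 3.04 in beta 2, 1.43 in beta 3, 1.55 in delta 1, and 1.93 in delta 2, and beta 1 had no peak. Only alpha 1 and beta 2 passed the stricter cutoff, and of the 6 peaks those of delta 1 and delta 2 covered the annotated start, where the others began downstream of it. The peaks of beta 2 and beta 3 did not overlap each other and were joined through that of alpha 1. The alpha 2 peak did not overlap those of beta 2, delta 1, or delta 2. The values of the cell types overlapped. Around its summit the window had a GC content of 71.0%, 28 CpG sites, and 2 matches to GGGCGG.

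The strongest peak of the 4 loci lay upstream of Adora2a, in an intron of the neighbouring gene Specc1l, which encodes a cytoskeletal protein. At chr10:75300869-75301090 the -log10 q was 20.8 in alpha 1, 1.81 in alpha 2, and 2.12 in beta 1, with fold enrichments of 12.6, 3.52, and 3.51. Beta 2, beta 3, and both delta libraries had no peak there. The region was open in alpha cells by the rule of 2 libraries, but its height rested on alpha 1. The 3 libraries with a peak are those of the shared lane, and beta 1 is the beta library whose list name carries alpha. Lane and mouse cross cannot be told apart from a difference between cell types.

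Within Adora2a an intronic region (chr10:75326432-75326914) was called in 4 libraries. Its -log10 q was 9.70 in alpha 2, 0.08 in beta 1, 1.42 in beta 3, and 1.91 in delta 1. Alpha 1, beta 2, and delta 2 had no peak, so 1 alpha library had the highest value and the other none. The last 20 kb of the window, downstream of the gene, held no peak in any library.

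Adora1, the high-affinity receptor that lowers cAMP, had the largest number of regions (37) and no promoter peak past the stricter cutoff. Within 1 kb of the 5′ end, beta 3 had a peak with a -log10 q of 1.06 and delta 1 one with 1.62, and neither covered the start. The other 5 libraries had none. The nearest strong peak was intergenic, upstream of the gene at chr1:134238123-134238347, with a -log10 q of 8.59 and a fold enrichment of 7.53 in alpha 1, and 1.10 and 3.12 in beta 1. Alpha 2 and the other libraries had none, so no cell type had it in 2 libraries.

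The 4 beta-selective regions lay on the 3′ side of the Adora1 window. The most distal from the promoter was in an intron of Chil1, a chitinase-like secreted protein (chr1:134185440-134185644), with a -log10 q of 1.10 in beta 1 and 1.42 in beta 3. The one with peaks in all 3 beta libraries lay in an intron of Mybph, a muscle myosin-binding protein (chr1:134195069-134195543). Its -log10 q was 0.08 in beta 1, 3.04 in beta 2, and 5.71 in beta 3, and the peaks of beta 1 and beta 3 touched different ends of it without overlapping each other. No alpha or delta library had a peak there. The last pair lay in Adora1 introns. The region at chr1:134206049-134206303 had 2.44 in beta 1 and 1.82 in beta 2, and that at chr1:134211745-134211945 had 0.08 in beta 1 and 1.82 in beta 2. Each of the 4 regions had a peak in beta 1, and without that library 1 of them, the Mybph intron region, was still beta-selective. Without beta 2 the Mybph peaks of beta 1 and beta 3 were not joined and the call was lost. The 1 region still beta-selective was then that in the Chil1 intron.

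Other Adora1 introns were called in alpha and delta cells. The region at chr1:134221226-134221608 had a -log10 q of 1.13 in alpha 1, 0.18 in alpha 2, 0.08 in beta 1, and 2.98 in delta 1. The region at chr1:134216756-134216955 had the same interval in alpha 2, delta 1, and delta 2, with 0.18, 0.20, and 1.93. Neither neighbour with its 5′ end in the window had a promoter peak in 2 libraries: Chil1 had none and Mybph one, in beta 1.

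Adora3, the other receptor that lowers cAMP, has a 5′ end in the annotation that it shares with Tmigd3, an immunoglobulin-domain gene whose body spans it. At this start (transcript Adora3-202) peaks lay in all 3 beta libraries and in alpha 1. The -log10 q was 1.20 in beta 1, 1.71 in beta 2, 3.72 in beta 3, and 1.13 in alpha 1, and alpha 2 and both delta libraries had none. At chr3:105904421, the start of transcript Adora3-201 further downstream, alpha 1 alone had a peak, with a -log10 q of 2.81. Promoter calls of Adora3 thus depended on the transcript, and neither start was called in delta cells.

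Over the 4 genes, the promoter was called in at least 2 libraries at Adora2a and Adora2b in alpha cells, at Adora2a and Adora3 in beta cells, and at Adora2a in delta cells. Among all protein-coding genes this was the case for 56.8% in alpha cells, 56.1% in beta cells, and 54.1% in delta cells. The beta call at Adora3 was at the start shared with Tmigd3. No beta library had a promoter peak at the Adora3 transcript starts further downstream. None of the receptors had a promoter peak selective for beta or delta cells, as 1.7% and 0.119% of protein-coding genes had. With the stricter cutoff, Adora2b in alpha cells was the 1 receptor called in any cell type. At that cutoff 51.5% of all protein-coding genes were called in alpha cells, 41.4% in beta cells, and 48.4% in delta cells.

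**Figure D2:**
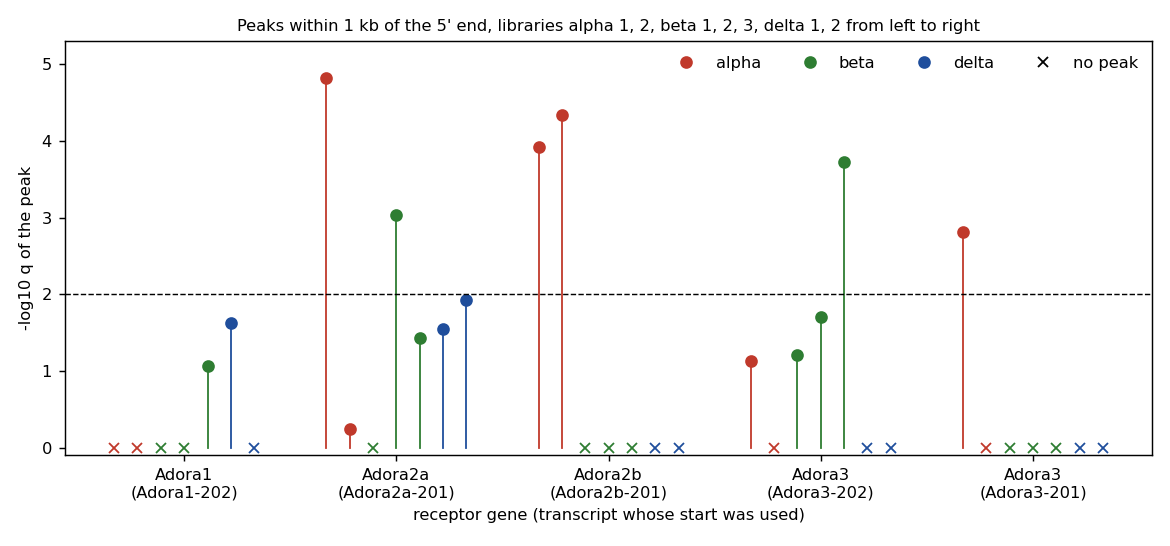
The -log10 q of the peak within 1 kb of each receptor's 5′ end in each library, with a second start for Adora3. Dots are peaks, crosses mark libraries without one, and the dashed line is a -log10 q of 2. Adora2b has dots in the 2 alpha libraries only, at 3.92 and 4.34, and Adora1 has none above the line.

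The delta-selective region lay deep in an intron shared by Adora3 and Tmigd3 (chr3:105899763-105900119), before the Adora3 transcript starts further downstream. Delta 1 had a -log10 q of 3.47 and a fold enrichment of 4.60 there, and delta 2 had 5.59 and 5.92. No alpha or beta library had a peak in it, although alpha 2 had a separate peak just before it. Upstream of the gene, an intergenic region (chr3:105866003-105866514) had peaks in 6 libraries, all but beta 2, of which alpha 2 with 4.34 and beta 3 with 2.13 passed the stricter cutoff.

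**Figure D3:**
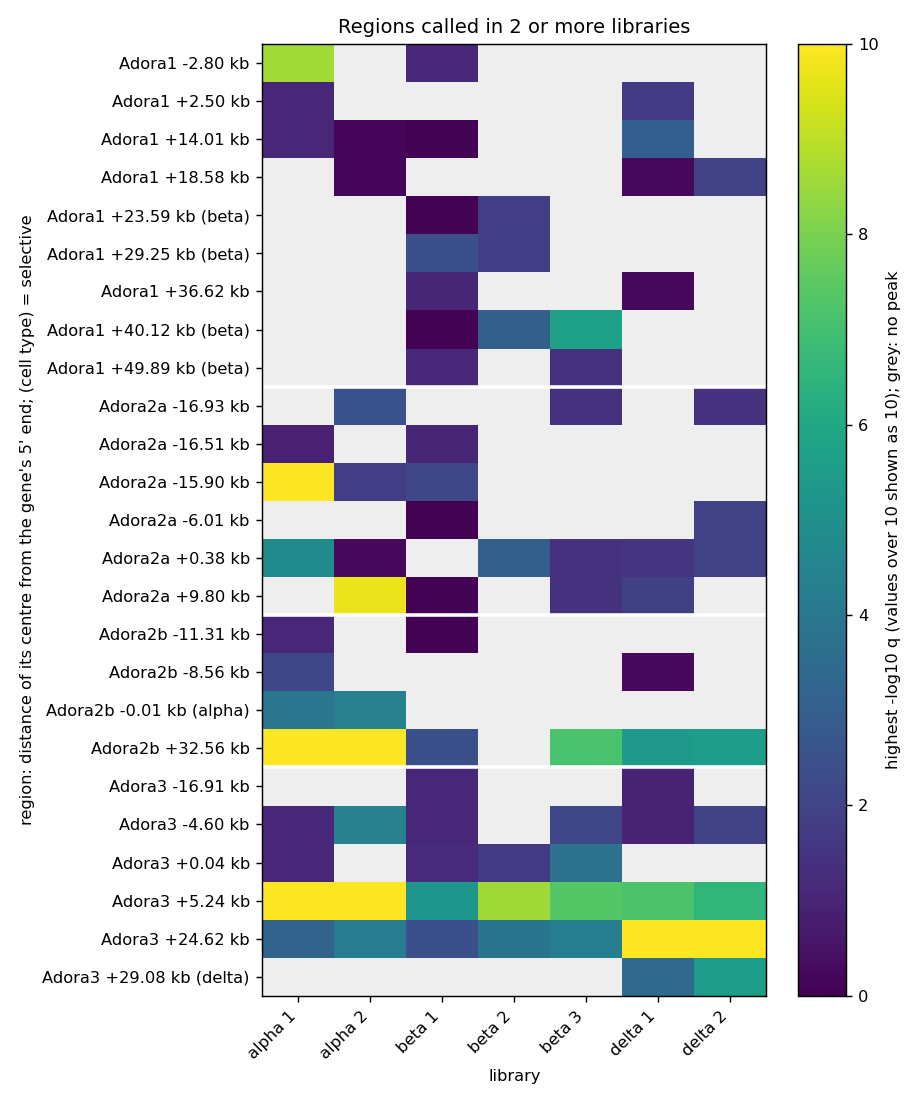
Highest -log10 q of each library in the 25 regions called in 2 or more libraries, ordered by gene and by distance of the region's centre from the 5′ end. Grey cells have no peak, values over 10 share the last colour, and a cell type in brackets marks a selective region. The 2 Adora3 regions at +5.24 and +24.6 kb are filled in every column.

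The 2 regions with a peak in every library also lay in introns shared by Adora3 and Tmigd3, before the Adora3 starts further downstream. Their strength had not been used to choose them, and it was compared across the cell types. Strength was the highest -log10 p of a library's peaks in a region, given as its percentile among the 17759 regions called in all 7 libraries, so that longer and shorter lists were on one scale. The sequences around their highest summits are shown because these are the only stretches of the 4 loci open in every library. They are written as above, from chr3:105876059-105876358 and chr3:105895386-105895685.
First region: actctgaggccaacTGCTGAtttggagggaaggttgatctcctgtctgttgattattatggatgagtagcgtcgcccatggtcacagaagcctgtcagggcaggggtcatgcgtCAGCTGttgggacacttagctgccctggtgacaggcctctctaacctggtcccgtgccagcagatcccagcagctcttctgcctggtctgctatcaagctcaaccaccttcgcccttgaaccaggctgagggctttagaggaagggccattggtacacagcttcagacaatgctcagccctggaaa
Second region: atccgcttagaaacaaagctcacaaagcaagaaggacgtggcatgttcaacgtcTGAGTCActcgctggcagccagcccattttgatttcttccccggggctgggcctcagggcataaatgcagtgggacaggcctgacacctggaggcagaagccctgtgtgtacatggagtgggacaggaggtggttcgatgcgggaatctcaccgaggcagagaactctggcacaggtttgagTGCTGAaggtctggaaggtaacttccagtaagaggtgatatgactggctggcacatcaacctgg

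The first region (chr3:105875784-105876403) had strength percentiles of 49.1 in alpha 1, 40.4 in alpha 2, 53.2 in beta 1, 66.4 in beta 2, 42.1 in beta 3, 19.6 in delta 1, and 26.1 in delta 2. The means were 44.8 ± 6.18 (SD, n = 2) in alpha cells, 53.9 ± 12.2 (SD, n = 3) in beta cells, and 22.9 ± 4.61 (SD, n = 2) in delta cells. Alpha and beta overlapped and both delta libraries were the lowest. On the scale of fold enrichment the alpha libraries had 8.67 and 9.21, above the beta libraries with 5.74, 7.69, and 6.92 and the delta libraries with 6.76 and 6.35, and beta 1 was the lowest. The exact permutation test over the 3 cell types gave p = 0.0476, and 0.387 after Benjamini-Hochberg adjustment over the 17759 regions. With the percentile of fold enrichment as the strength, the unadjusted exact permutation p was 0.0762. In that percentile beta cells had the highest mean, unlike in the fold enrichments themselves. With libraries permuted within sex, the unadjusted exact permutation p was 0.0833. The printed window held 1 match to TGCTGA, which 25.7% of all windows held, and 1 to CAGCTG.

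The second region (chr3:105895104-105895854) had strength percentiles of 12.9 in alpha 1, 11.9 in alpha 2, 27.3 in beta 1, 34.7 in beta 2, 24.8 in beta 3, 46.0 in delta 1, and 48.1 in delta 2. The means were 12.4 ± 0.703 (SD, n = 2) in alpha cells, 28.9 ± 5.18 (SD, n = 3) in beta cells, and 47.1 ± 1.45 (SD, n = 2) in delta cells. The groups did not overlap, with alpha lowest and delta highest. On the scale of fold enrichment the delta libraries had 10.3 and 9.09, the alpha libraries 4.49 and 5.07, and the beta libraries 4.03, 5.07, and 5.26, so that on this scale alpha and beta overlapped. The exact permutation p was 0.00952, the smallest that 210 assignments allow, and the adjusted p was 0.317. As the percentile within the library's own list, the strength gave an exact permutation p of 0.162. The printed window held a TGAGTCA and 1 match to TGCTGA. Delta cells thus had the lowest mean at the first region and the highest at the second, which lies further into the gene.

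Neither region passed the adjusted threshold of 0.05, and no region in the genome did (0 of 17759 by the permutation test). An unadjusted p under 0.05 was found for 12.3% of the 17759 regions (2187), and for both Adora3 regions. Beta cells were sorted from the same animals as alpha or delta cells, which the test did not use. Alpha and delta cells came from different crosses. Permuting within pairs formed from list names and sex gave an exact permutation p of 0.125 for both regions, the smallest that 8 assignments allow. Pairs of cell types were not tested, since an exact permutation of 2 against 2 or 3 libraries cannot reach 0.05.

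**Figure D4:**
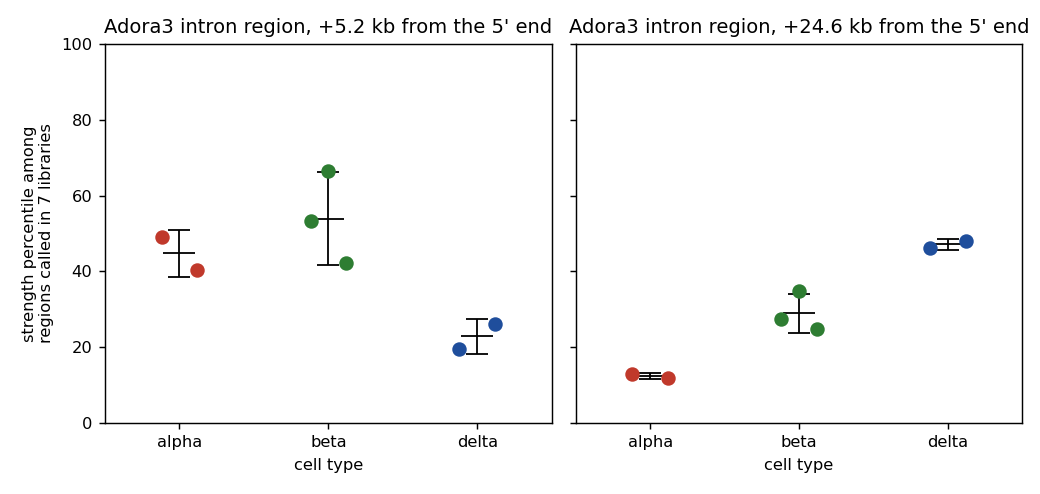
Strength percentile of the 2 Adora3 intron regions called in all 7 libraries, by cell type. Dots are libraries and bars the mean and SD. In the region at +24.6 kb the alpha libraries lie at 11.9 and 12.9 and the delta libraries at 46.0 and 48.1.

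The share of each window covered by peaks was placed among the windows of all 21938 protein-coding genes, library by library. Over the 7 libraries the mean percentile was 49.5 ± 19.1 (SD, n = 7) for Adora1, 49.5 ± 19.7 (SD, n = 7) for Adora2a, 44.7 ± 26.3 (SD, n = 7) for Adora2b, and 51.3 ± 21.99 (SD, n = 7) for Adora3. The 4 means therefore differed by less than the spread over libraries. Adora1 was at 79.7, 65.6, and 53.2 in the beta libraries, at 41.97 and 33.98 in alpha, and at 48.8 and 23.01 in delta, so each beta library lay above all others. The beta libraries spread widely at Adora2b, with 8.04, 15.7, and 76.4. Adora3 had 12.04 in beta 1 against 82.2 and 65.0 in beta 2 and beta 3. At the stricter cutoff Adora2b was at 75.6 and 71.2 in the alpha libraries, against 66.2, 15.0, and 54.1 in beta and 62.0 and 51.9 in delta. Adora1 was then at 40.0, 43.7, and 27.1 in beta against 38.6 and 21.03 in alpha and 23.9 and 11.01 in delta, so the beta and alpha libraries overlapped. Adora2a was at 56.6 and 53.1 in alpha and at 40.5 or below in all other libraries, with no such peak in either delta library. Adora3 was at 60.1, 84.7, and 80.8 in beta, 45.1 and 47.3 in alpha, and 56.5 and 54.1 in delta, so each beta library lay above all others.

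**Figure D5:**
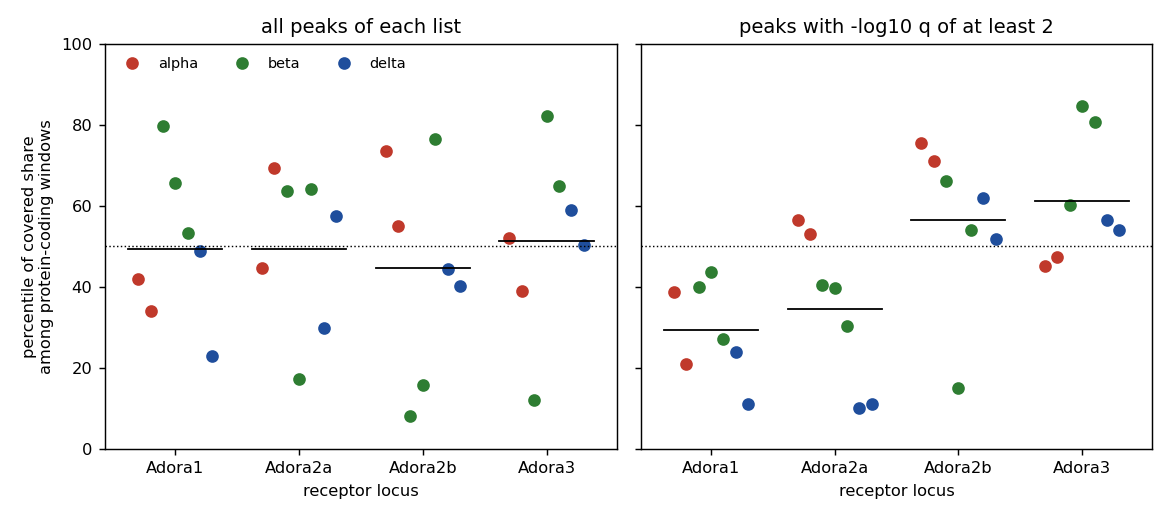
Percentile of the share of each receptor window covered by peaks, among all protein-coding windows of the same library, with all peaks (left) and with those past the stricter cutoff, a -log10 q of 2 (right). Dots are libraries, solid lines the mean of 7 libraries, and the dotted line 50. The 4 means with all peaks lie between 44.7 and 51.3.

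The genes whose covered share was most like each receptor's over the 7 libraries were named by the root mean square difference of these percentiles, leaving out genes within 100 kb. For Adora1 they were Tas2r144 (4.999), Me3 (6.44), and Emc2 (7.15), against a median of 32.5 over all genes. For Adora2a they were Mfap2 (7.15), Gramd2 (7.23), and Elane (7.74). For Adora2b they were Kcnip2 (7.50), Adsl (7.58), and Cygb (8.21). For Adora3 they were Rfpl4 (6.93), Gm4869 (7.31), and Eif1ax (7.59). The measure describes peak coverage in these lists alone.

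The rest of the pathway was read at its promoters, from 65 genes in 4 lists. A promoter was called in 45 of the 65 in alpha cells, 47 in beta cells, and 46 in delta cells, which is 69.2%, 72.3%, and 70.8%, beside 56.8%, 56.1%, and 54.1% of all protein-coding genes. Nothing particular to the pathway is read from this. Of 10 genes listed under adenosine production outside cells, 8 were called in alpha, 6 in beta, and 6 in delta. Entpd1 and Nt5e, the nucleotidases that turn ATP into AMP and AMP into adenosine, had promoter peaks in all 7 libraries. Alpl and Acpp, phosphatases that also hydrolyse AMP, were called in alpha cells alone, but Alpl had a single peak in beta 3 and Acpp one in delta 1.

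Of 12 genes for transport and removal, 7 were called in alpha, 8 in beta, and 9 in delta. Adk, the adenosine kinase, and Slc29a2 and Slc29a3, equilibrative transporters, had promoter peaks in all 7 libraries. Slc29a1, the main equilibrative transporter at the plasma membrane, was called in beta and delta and had a peak in alpha 2. Slc29a4, a cation and adenosine transporter, was called in alpha and delta and had one in beta 1. Slc28a3, a concentrative transporter, was called in delta alone, with no peak in alpha or beta libraries, although beta 1 and beta 3 had peaks at another start. Ada, adenosine deaminase, was called in beta alone, with single peaks in alpha 2 and delta 1.

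Of 28 G proteins, cyclases, and cAMP effectors, 24 were called in alpha, 25 in beta, and 24 in delta. Gnai1, Gnai2, and Gnai3, the inhibitory subunits, had promoter peaks in all 7 libraries, as did Gnao1. Gnas, the complex locus of the stimulatory subunit, was called in beta and delta at its annotated 5′ end, which is not the start of that subunit, and had a peak in all 7 libraries when every transcript start was used. Its close relative Gnal was called in alpha and beta and had one in delta 1. Among the adenylyl cyclases, Adcy5 was called in beta and delta and Adcy7 in alpha and beta, where Adcy1, Adcy3, and Adcy9 had peaks in all 7 libraries. Adcy5 also had a peak in alpha 2. That peak and the beta 3 peak passed the stricter cutoff, and those of beta 1, delta 1, and delta 2 did not. Rapgef4, the cAMP sensor Epac2, was called in alpha and delta and had a peak in beta 1.

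Of the 15 genes listed as ATP and nucleotide receptors, 6 were called in alpha, 8 in beta, and 7 in delta. P2ry1 and P2ry12, ADP receptors, and P2rx3, an ATP-gated channel, had promoter peaks in all 7 libraries. P2rx6 was called in alpha and delta, past the stricter cutoff in all 4 of those libraries and in beta 1. P2rx7, the ATP-gated channel of inflammatory signalling, was called in beta alone, with peaks in beta 1 and beta 3 and none elsewhere. P2ry2, an ATP and UTP receptor, was called in beta and delta with none in alpha, and P2ry14, a UDP-glucose receptor, in beta with 1 peak in alpha 1. At the stricter cutoff 38 of the 65 genes were called in alpha cells, 27 in beta cells, and 40 in delta cells, or 58.5%, 41.5%, and 61.5%, against 51.5%, 41.4%, and 48.4% of all protein-coding genes. Of the 15 genes whose call differed between the cell types, 4 (Slc29a1, Slc29a4, Rapgef4, and P2rx6) were still called in a cell type at that cutoff, and 3 of them, all but Slc29a1, in the same cell types. The other 11 were called in none. Calls differed for 23.1% of the 65 genes and for 13.4% of all protein-coding genes. Of the 15, 26.7% were still called at the stricter cutoff and 20% with the same call, where the shares were 41.5% and 23.5% of the 2935 differing genes of the genome. With every annotated transcript start in place of the 5′ end, Slc29a1, Slc29a4, Gnas, and P2ry14 were called in all 3 cell types, Acpp in alpha and delta, and Slc28a3 in beta and delta.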

How the data were processed

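The authors aligned single-end ATAC-Seq reads to mm10 (GRCm38) with Bowtie2 after Trimmomatic, marked duplicates with Picard, and ran MACS2 on every library by itself. The deposited lists give a score, the fold enrichment, the -log10 p, and the -log10 q of each peak, all made by the authors' MACS2 calls from 1 library. The lowest -log10 p was 2.01 in every list, and no list holds reads, so no counts or intervals are given. Unique reads per library were taken from the published quality metrics as an order alone. Members and gene lists were chosen with earlier results of these data known.

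Intervals given more than once in a list were used once, with the highest -log10 p. Peaks were joined across lists where they overlapped by at least 1 bp, and 0 of the joined regions differed from bedtools 2.31.1. Genes were those of GENCODE release M21, and the 5′ end was that of the annotated gene. The genes named were the 4 receptors, their neighbours, list genes whose promoter call differed between the cell types, and the 3 genes most like each receptor in coverage, with a few list and marker genes added after their values were seen. All of 65 pathway genes matched the annotation, and Amy2b among the acinar markers did not. Sequences came from the RefSeq copy of GRCm38, and no peak passed the end of any of its 21 chromosomes. The exact permutation test used the between-group sum of squares over all 210 assignments, in Python 3.11.15 with numpy 2.4.6, and was tested on simulated data. Per the methods, beta cells came from the same animals as alpha or delta cells, which came from different crosses. The labels do not say which libraries share animals, and p-values measure the spread between these pools.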

Additional observations from a re-analysis of the deposited data

How the results depend on the processing

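A -log10 q of at least 2 left 23 regions at the 4 loci, 4 open in each of alpha, beta, and delta cells and 1 beta-selective, with promoter peaks in 0 libraries at Adora1, 2 at Adora2a, and 1 at Adora3, beta promoter calls at 27 of the pathway genes, and a mean percentile of 29.3 for Adora1. With the best 50000 peaks of each list there were 35 regions, 4 open in alpha cells, 7 in beta cells, and 4 in delta cells, and promoter peaks in 0 libraries at Adora1 and 2 at Adora3. With gene bodies alone there were 40 regions, 5 open in alpha and 7 in beta cells, 2 beta-selective, and a mean percentile of 73.1 for Adora2a. With 50 kb on either side there were 164 regions, 18 open in beta and 12 in delta cells, and 8 beta-selective. Asking a library's peaks to cover 0.5 of a region gave 6 open in beta and 4 in delta cells. With 1 library enough, 29 were open in alpha cells, 61 in beta cells, and 23 in delta cells, and 13, 45, and 9 were selective, whereas asking for every library gave 4 open in beta cells and 1 beta-selective. A promoter window of 3 kb gave Adora1 a peak in 5 libraries and Adora2b one in 3, with beta 2 beside the alpha libraries.

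Leaving out 1 library at a time gave between 60 and 85 regions, 8 to 19 open in alpha cells, 5 to 11 in beta cells, and 7 to 20 in delta cells, and 1 to 8 alpha-selective, 1 to 5 beta-selective, and 1 to 8 delta-selective regions, where a cell type left with 1 library was called from it alone. Without beta 1, 5 regions were open in beta cells, 1 was beta-selective, and 2 were alpha-selective. Without beta 2, 7 were open in beta cells and 1 was beta-selective, and without beta 3, 6 were open. Promoter peaks lay in 1 to 2 libraries at Adora1, 5 to 6 at Adora2a, 1 to 2 at Adora2b, and 3 to 4 at Adora3. The adjusted p of the Adora3 regions ranged from 0.447 to 0.637 for the first and from 0.447 to 0.592 for the second when a library was left out, where without a beta library the exact permutation p cannot go below 0.0667, so that these values say nothing about stability. With the replicate number as a block, the adjusted p was 0.585 for the first and 0.495 for the second region, where the exact permutation p of the second was 0.0556, the smallest possible. Most pairs of same-numbered libraries differed in sex, so the number was not taken as a pairing. Their correlations ran from -0.0275 to 0.00487 over the 17759 regions. Beta cells were sorted from the same animals as alpha or delta cells. List names and sex together would put alpha 2 with beta 1, beta 2 with delta 1, and beta 3 with delta 2. Permuting within these pairs, an alternative chosen after seeing the data, gave both regions an exact permutation p of 0.125, the smallest that 8 assignments allow, and an adjusted p of 0.545. The correlations within the pairs were 0.00675, 0.0053, and -0.00456. Correlations were small under both pairings, so they cannot show which libraries share animals.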
